A study of Mus musculus with 35 samples.

Results

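Monocarboxylate transporters of the SLC16 family carry lactate, pyruvate and ketone bodies across the plasma membrane together with a proton. Described here are the 5 genes Slc16a7, Slc16a1, Slc16a3, Bsg and Emb, taken by symbol from the 31053 genes of the deposited count tables and followed in all 35 kidney libraries. Slc16a7 encodes MCT2, which has a high affinity for lactate and pyruvate, Slc16a1 the widely expressed MCT1, and Slc16a3 the low-affinity MCT4 of glycolytic cells. Bsg (basigin) and Emb (embigin) are related glycoproteins that bring these transporters to the cell surface, basigin mainly MCT1 and MCT4 and embigin mainly MCT2. Slc16a7 was chosen by its values in the Flcn cross and in the difference between the Flcn/Tfeb and Flcn crosses, and the other 4 genes were listed as its relatives. Values of Slc16a7 in those comparisons are therefore given as a description, without a test.

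Whole kidneys of C57BL/6 mice were profiled at postnatal day 2 by QuantSeq, which reads transcripts from their 3′ ends only. The study states that it used both sexes, without giving the sex of the kidneys sequenced here. Flcn KO mice (n = 5) carried Ksp-cre and floxed alleles of Flcn, the gene of folliculin. Flcn/Tfeb DKO mice (n = 4) carried floxed alleles of Tfeb in addition, and Flcn/Tfe3 DKO mice (n = 10) were Tfe3-/- in addition. Each cross had controls of its own (n = 5, 3 and 8), which the labels name only by their cross. The study calls its control mice Flcn flox/flox, without saying whether this holds for the controls of each cross sequenced here. Ksp-cre is driven by the promoter of Cdh16, which is active in tubule cells such as those of the thick ascending limb, the distal tubule and the collecting duct, so Flcn and Tfeb were deleted in some cells of the kidney only, whereas Tfe3 was absent from the whole animal. Folliculin takes part in keeping the transcription factors TFEB and TFE3 out of the nucleus, and the crosses ask which of both factors a change in Flcn KO kidneys depends on. Libraries of the Flcn/Tfe3 cross came in 2 count tables, named in vivo (6 DKO, 3 control) and CDM (4 DKO, 5 control) in the labels, and the fits of that cross give each table its own baseline.

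Between 1652649 and 4239356 reads per library were counted on genes (median 2992169). All 63 pairs of libraries of the same group and table differed by more than sampling noise (chi-square per degree of freedom 2.85 to 42.6), so each was counted as a sample of its own, and the labels call them biological replicates. Control Flcn/Tfeb replicate 3 stood apart from the other controls of its cross (38.1 and 42.6, against 4.45 between those). Controls 4 and 5 of the Flcn cross differed from its controls 1 to 3 by 15.5 to 21.3, against 2.85 to 4.01 among the first 3 or between that pair, and control Flcn/Tfe3 replicate 6 from the other CDM controls by 11.9 to 28.9, against 5.11 to 11.7 among those. Slc16a7 had log2 fold changes of 1.34 in Flcn KO without controls 4 and 5, -0.27 in Flcn/Tfeb DKO without control 3 and 1.17 in Flcn/Tfe3 DKO without control 6, and 0 of its 4 relatives were called in these fits. Knockout libraries varied too. Flcn/Tfe3 DKO replicate 4 differed from the other in vivo DKO libraries by 8.49 to 19.2, against 4.27 to 12.6 among those. With any 1 library of that cross left out, Slc16a7 was at 1.15 to 1.27. Levels are given in CPM, the count of a gene relative to the library's total on genes after scaling by TMM over all 35 libraries, and differences as log2 fold changes with their standard error (SE). A gene was called where the Benjamini-Hochberg adjusted p of edgeR's two-sided quasi-likelihood test, taken over all genes tested, was under 0.05. Flcn itself had 15.1 ± 3.25 CPM (SD, n = 5) in Flcn KO and 13.9 ± 2.26 (SD, n = 5) in control libraries, and Tfe3 18.5 ± 3.80 (SD, n = 10) in Flcn/Tfe3 DKO and 19.2 ± 3.11 (SD, n = 8) in control libraries. Controls of the Flcn and Flcn/Tfeb crosses held 32.03 ± 5.19 CPM (SD, n = 5) and 36.5 ± 6.80 CPM (SD, n = 3) of Tfe3, above both groups of the Flcn/Tfe3 cross, and their difference was not tested. Tfeb had 7.47 ± 0.680 CPM (SD, n = 4) in Flcn/Tfeb DKO and 11.96 ± 6.67 (SD, n = 3) in control libraries, of which replicate 3 held 19.5 CPM and the others had a mean of 8.17 CPM. Reads from the 3′ end need not cover the deleted part of a gene, so these levels do not check the labels.

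Slc16a7 (ENSMUSG00000020102, mm10 chromosome 10 from 125219270 to 125389465, minus strand) was about 2.5 times its control level in Flcn KO kidneys. Control libraries of the Flcn cross held 42.9, 34.5, 27.1, 34.9 and 40.8 CPM, and Flcn KO libraries 104, 74.3, 82.1, 109 and 78.6 CPM. Every Flcn KO library lay above every control, and the lowest of them held 74.3 CPM against 42.9 CPM in the highest control. Means were 36.04 ± 6.19 CPM (SD, n = 5) in controls and 89.6 ± 15.7 CPM (SD, n = 5) in Flcn KO, with 51 to 141 and 174 to 268 reads behind each value. The log2 fold change was 1.30 (SE 0.15), a fold of 2.45. In this fit 62 of 11932 genes were called (0.520%), 54 of them higher, and 1.58% of 13728 genes had every Flcn KO library above every control.

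In Flcn/Tfeb DKO kidneys Slc16a7 was not above its controls. Control libraries held 32.7, 28.6 and 39.1 CPM, and Flcn/Tfeb DKO libraries 30.6, 22.7, 28.2 and 20.1 CPM. All 4 DKO libraries lay below the control mean and 3 of 4 below every control, although the groups overlapped. Means were 33.5 ± 5.29 CPM (SD, n = 3) and 25.4 ± 4.84 CPM (SD, n = 4), a log2 fold change of -0.42 (SE 0.23). No gene of the 12469 tested was called in this cross by edgeR (0%), or by DESeq2, with 632 at an unadjusted p under 0.05. The effect in the Flcn/Tfeb cross less that in the Flcn cross was -1.72 (SE 0.25) on the log2 scale, and this value was among those that chose the gene. In that fit 2 of 13049 genes were called (0.0153%).

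Libraries of the Flcn/Tfe3 cross were not among the values that chose Slc16a7, and there the gene was again higher in the knockouts. Earlier results of these data were known at that choice, so the tests below may not be fully independent of it. The 8 controls ranged from 25.7 to 41.4 CPM (median 33.6) and the 10 Flcn/Tfe3 DKO libraries from 54.7 to 97.2 CPM (median 78.4). Every DKO library lay above every control, which held for 0.109% of 13728 genes in this cross. Means were 34.3 ± 5.76 CPM (SD, n = 8) and 77.2 ± 11.7 CPM (SD, n = 10). The log2 fold change was 1.20 (SE 0.11, 95% confidence interval 0.97 to 1.44), a fold of 2.30, and the adjusted p from edgeR was 9.2e-07. With the replicate number as a block it was 1.12 and not called (adjusted p 0.10 from edgeR). In that fit only numbers found in both groups inform the effect, replicates 1 to 3 in vivo and 7 and 8 in CDM. The numbers did not pair the samples. In this fit 48 of 12456 genes were called (0.385%), 43 of them higher. An exact permutation of the libraries within tables, two-sided, gave a difference of 1.19 in log2 CPM with p = 9.4e-05, the smallest that its 10584 regroupings allow.

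Each table of the Flcn/Tfe3 cross gave this rise on its own. In the in vivo table Slc16a7 had 33.7 ± 6.14 CPM (SD, n = 3) in control and 72.7 ± 10.8 CPM (SD, n = 6) in DKO libraries. All 6 DKO libraries lay above all 3 controls, as in 1.66% of genes, and the log2 difference was 1.09 (exact permutation p = 0.0119, the smallest of 84 regroupings). In the CDM table the levels were 34.6 ± 6.23 CPM (SD, n = 5) and 84.0 ± 10.8 CPM (SD, n = 4). The difference was 1.27 (exact permutation p = 0.00794, the smallest of 126 regroupings). Flcn/Tfe3 DKO replicate 3 of the in vivo table held the lowest DKO level, 54.7 CPM, which was 1.62 times the mean of its own controls. The other 9 DKO libraries held 2.00 to 2.80 times that mean.

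**Figure D1:**
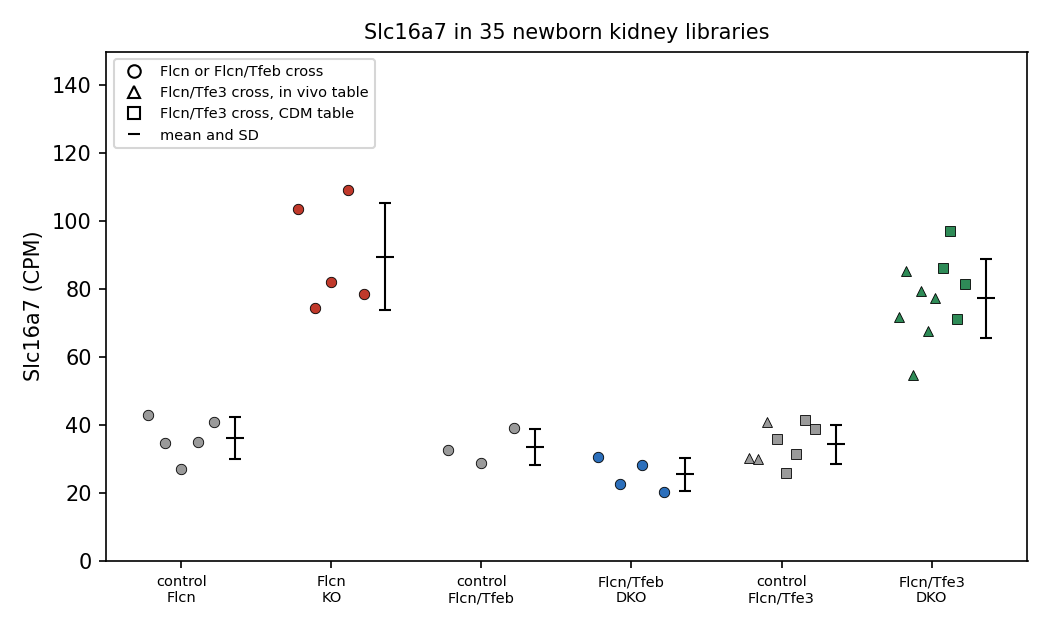
Level of Slc16a7 in each of 35 libraries (y axis, CPM) by group (x axis), with the mean and SD of each group as bars and the count table of the Flcn/Tfe3 cross as the marker shape. Flcn KO (74.3 to 109 CPM) and Flcn/Tfe3 DKO (54.7 to 97.2 CPM) lie above all controls (25.7 to 42.9 CPM), and Flcn/Tfeb DKO (20.1 to 30.6 CPM) overlap the lower controls.

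Ordered by mean level, Slc16a7 was lowest in Flcn/Tfeb DKO (25.4 CPM), followed by the controls of the Flcn/Tfeb, Flcn/Tfe3 and Flcn crosses (33.5, 34.3 and 36.04 CPM), Flcn/Tfe3 DKO (77.2 CPM) and Flcn KO (89.6 CPM). Neighbouring control groups differed by less than their SD. Flcn/Tfe3 DKO and Flcn KO overlapped, and their effects against their own controls differed by -0.095 (SE 0.19) on the log2 scale, Flcn/Tfe3 less Flcn. The effect in the Flcn/Tfe3 cross less that in the Flcn/Tfeb cross was 1.60 (SE 0.23). These differences between crosses contain an effect that chose the gene, or one that shares a group with it, and were not tested. In the fits 0 of 13209 (0%) and 3 of 13637 genes (0.0220%) were called.

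Marker lists of tubule cell types went different ways beside Slc16a7. Of 5 intercalated cell markers, 2 were called higher in Flcn KO, against 0.520% of all genes. They were the proton pump subunits Atp6v1g3 (log2 fold change 1.31, SE 0.18) and Atp6v0d2 (1.02, SE 0.13). Of the 5, 4 were above 0 and 1 below. Without controls 4 and 5 of the Flcn cross they ran from -0.23 for Slc26a4 to 1.24 for Foxi1. Atp6v0d2 was also called in Flcn/Tfe3 DKO (1.13, SE 0.15), against 0.385% of all genes. In Flcn/Tfeb DKO 0 of 5 were called, and Atp6v0d2 was at 1.04 without control Flcn/Tfeb replicate 3. The summed level of the 5 markers was 132 and 139 CPM in controls 4 and 5 of the Flcn cross, 186 to 193 CPM in its other controls and 325 to 438 CPM in Flcn KO, and 142 to 247 CPM and 240.2 to 393 CPM in the Flcn/Tfe3 cross. In the Flcn/Tfeb cross it was 163 to 214 CPM in controls and 239.6 to 251 CPM in DKO libraries. Every DKO library thus lay above every control, which held for 2.99% of 13728 single genes in that cross. Of 4 thick ascending limb markers, Umod (uromodulin) was called higher in Flcn KO (1.001, SE 0.12) and in Flcn/Tfe3 DKO (0.71, SE 0.098). Of all genes 0.520% and 0.385% were called in these fits. The others of that list, Slc12a1 (0.18), Cldn16 (-0.29) and Egf (-0.94), were not called in Flcn KO, and without controls 4 and 5 they were at -0.0061, -0.57 and -1.35. In Flcn/Tfe3 DKO 3 of the 4 were tested, with Slc12a1 at 0.083 and Cldn16 at -0.19, neither called. Summed levels of this list were 799.9 to 1191 CPM in controls and 1154 to 1524 CPM in knockouts of the Flcn cross, 904 to 997 CPM and 861 to 979 CPM in the Flcn/Tfeb cross, and 691 to 951 CPM and 771 to 1210 CPM in the Flcn/Tfe3 cross.

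Summed levels of the principal cell and distal convoluted tubule lists did not run with Slc16a7. Of 6 principal cell markers 1 was called higher in Flcn KO, against 0.520% of all genes, the sodium channel subunit Scnn1b (0.58, SE 0.13). That call was lost without controls 4 and 5 (0.51, adjusted p 0.17 from edgeR), where Scnn1g was highest at 0.69. The water channel Aqp2 was at -0.48 (SE 0.14, adjusted p 0.20 from edgeR). Of the 6, 4 were above 0 and 2 below, and 3 had an unadjusted p under 0.05, against 9.07% of all genes. In Flcn/Tfe3 DKO 0 were called, 3 were above 0 and 3 below, and 4 stood under that p, against 7.15% of all genes. Without control Flcn/Tfe3 replicate 6 they ran from -0.62 for Avpr2 to 0.40 for Scnn1g. In the Flcn cross the list's sum was 385 to 501 CPM in controls and 341 to 457 CPM in knockouts. That sum was 348, 384 and, in replicate 3, 669.7 CPM in controls and 396 to 478 CPM in DKO libraries of the Flcn/Tfeb cross, and 482 to 687 CPM and 352 to 723 CPM in the Flcn/Tfe3 cross. Of the 4 distal convoluted tubule markers, 3 of them tested in the Flcn/Tfe3 cross, 0 were called in any cross (0.520%, 0% and 0.385% of all genes). Their sum had medians of 317 CPM in controls and 230.01 CPM in knockouts of the Flcn cross, 363 and 365 CPM in the Flcn/Tfeb cross, and 199 and 199.9 CPM in the Flcn/Tfe3 cross. All markers of the intercalated cell, thick ascending limb and principal cell lists had counts in every library. The part of these cells in the Slc16a7 result was not tested, and in bulk kidney more cells of a type and more RNA per cell cannot be told apart.

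None of the relatives of Slc16a7 was called after adjustment over all genes tested. Of Slc16a1, Slc16a3, Bsg and Emb, all tested in every fit, 0 were called by edgeR in any of the 6 comparisons, against 0.520%, 0% and 0.385% of all genes in the 3 crosses, and 0 by DESeq2. At an unadjusted p under 0.05 the count was 0 of 4 in Flcn KO, 0 of 4 in Flcn/Tfeb DKO and 1 of 4 in Flcn/Tfe3 DKO (Emb). Of all genes 9.07%, 5.07% and 7.15% stood under it in these crosses, so such counts among 4 genes are near the share of genes at large. Their log2 fold changes were 0.013 to 0.15 in Flcn KO, where the median of all genes tested was -0.0074. They were -0.33 to -0.047 in Flcn/Tfeb DKO, where that median was -0.017.

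**Figure D2:**
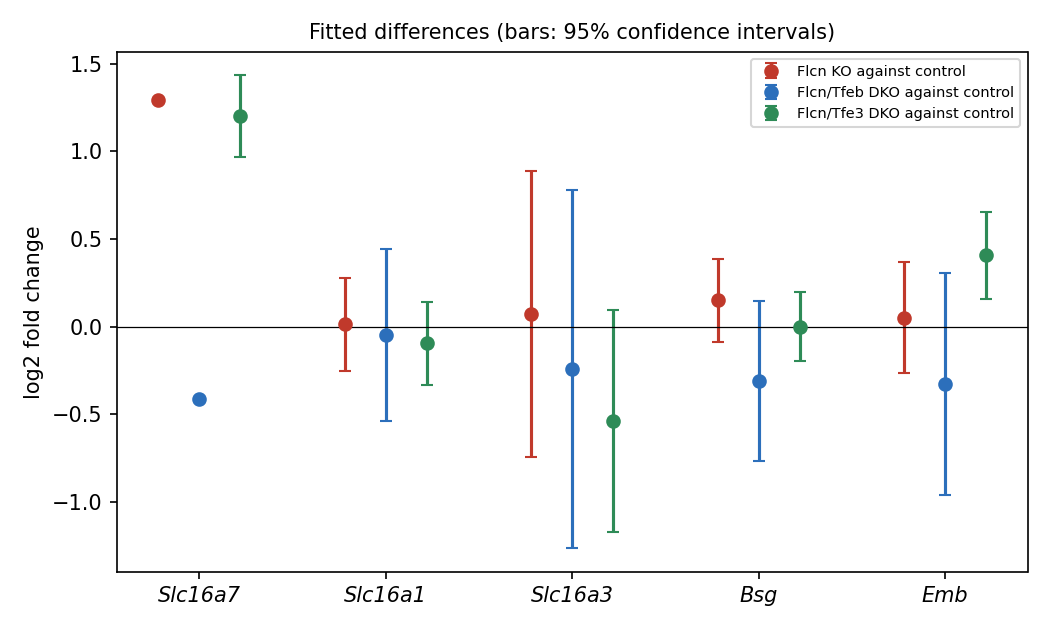
Log2 fold change of each gene against the controls of its own cross (y axis) for Flcn KO, Flcn/Tfeb DKO and Flcn/Tfe3 DKO, with 95% confidence intervals as bars, left out for Slc16a7 in the first pair of crosses, whose values chose it. Slc16a7 is at 1.30 and 1.20 in Flcn KO and Flcn/Tfe3 DKO and at -0.42 in Flcn/Tfeb DKO, and of the 4 relatives Emb in Flcn/Tfe3 DKO (0.41) has an interval that leaves out 0.

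Slc16a1 (ENSMUSG00000032902, chromosome 3 from 104638668 to 104658462, plus strand) had group means between 46.4 and 53.0 CPM. In the Flcn cross it had 52.2 ± 6.45 CPM (SD, n = 5) in controls and 53.0 ± 6.32 CPM (SD, n = 5) in Flcn KO. The log2 fold change was 0.013, with a 95% confidence interval of -0.25 to 0.28. Means in the Flcn/Tfeb cross were 47.4 ± 13.9 CPM (SD, n = 3) and 46.6 ± 5.89 CPM (SD, n = 4), and in the Flcn/Tfe3 cross 51.1 ± 8.54 CPM (SD, n = 8) and 46.4 ± 6.37 CPM (SD, n = 10). The log2 fold changes were -0.047 (interval -0.54 to 0.45) and -0.094 (interval -0.33 to 0.14). The Flcn/Tfeb value had no steady direction, at 0.19 without control Flcn/Tfeb replicate 3 and -0.24 without replicate 2.

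Promoter sequence was at hand for 3 of the 5 genes, Slc16a1, Slc16a3 and Emb (RefSeq, GRCm38.p6, 250 bases before to 50 after the start site). TFEB and TFE3 bind E-boxes with the core CACGTG, which reads the same on both strands. It stood in 1 of the 3, Slc16a1, 200 bases before the start site, as GTCACGTG, and the stretch is shown because this member, the only one of the 3 with the core, was not called in any comparison. CACGTG is in 7.15% and GTCACGTG or its reverse complement in 2.25% of all 32851 promoters. Capitals mark the core in these 30 bases, chr3:104638452-104638481, plus strand.
Slc16a1 promoter: gcggcgccgggtCACGTGgcgggaaggggg

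Slc16a3 (ENSMUSG00000025161, chromosome 11 from 120948480 to 120960868, plus strand) was measured from 2 to 60 reads per library, so its error was wide. Flcn KO libraries held 1.93, 9.76, 8.10, 1.25 and 5.57 CPM, on both sides of the controls at 6.19, 4.55, 7.43, 4.95 and 4.70 CPM. The log2 fold change was 0.073 (interval -0.74 to 0.89). In Flcn/Tfeb DKO it was -0.24 (interval -1.26 to 0.78), and 0.033 without control Flcn/Tfeb replicate 3. In Flcn/Tfe3 DKO it was -0.54 (SE 0.31, adjusted p from edgeR 0.76), and the tables differed. Within the in vivo table the log2 fold change was -1.004 (edgeR, adjusted p = 0.75), from 10.9 ± 3.68 CPM (SD, n = 3) in control to 5.38 ± 2.25 CPM (SD, n = 6) in DKO libraries. Within the CDM table it was 0.0083, with 4.64 ± 2.08 CPM (SD, n = 5) and 4.83 ± 2.49 CPM (SD, n = 4).

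Bsg (ENSMUSG00000023175, chromosome 10 from 79704491 to 79711969, plus strand) had 308 to 1294 reads in a library. Its level was 211 ± 12.5 CPM (SD, n = 5) in controls of the Flcn cross and 233.4 ± 29.8 CPM (SD, n = 5) in Flcn KO, a log2 fold change of 0.15 (interval -0.086 to 0.39). In the Flcn/Tfeb cross it was 224 ± 62.7 CPM (SD, n = 3) and 183 ± 24.8 CPM (SD, n = 4), with a log2 fold change of -0.31 (interval -0.76 to 0.15). Control Flcn/Tfeb replicate 3 held 295 CPM, and without it the log2 fold change was -0.050. In the Flcn/Tfe3 cross the log2 fold change was 0.00061 (interval -0.20 to 0.20), made up of 0.15 in the in vivo table and -0.17 in the CDM table. The difference between the Flcn/Tfeb and Flcn effects was -0.46 (SE 0.22, unadjusted p 0.044, adjusted p 0.82 from edgeR), and without control Flcn/Tfeb replicate 3 it was -0.19.

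Emb (ENSMUSG00000021728, chromosome 13 from 117208536 to 117274415, plus strand) was the member closest to Slc16a7 in the Flcn/Tfe3 cross. Controls ranged from 23.6 to 37.2 CPM (median 30.4) and Flcn/Tfe3 DKO libraries from 30.9 to 46.5 CPM (median 41.7). All 10 DKO libraries lay above the control mean and 6 above every control. Means were 30.4 ± 5.96 CPM (SD, n = 8) and 39.8 ± 5.35 CPM (SD, n = 10), a log2 fold change of 0.41 (SE 0.12, interval 0.16 to 0.66). The unadjusted p from edgeR was 0.0024 and the adjusted p 0.25, so Emb was not called. It was 0.37 in the in vivo table and 0.41 in the CDM table, where all 4 DKO libraries lay above all 5 controls, as did 3.13% of all genes. The CDM libraries also differed between DKO and most controls in their share of reads on no gene, and its part was not tested.

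In the other crosses Emb overlapped its controls. Flcn KO libraries held 34.2, 30.4, 22.8, 32.0 and 27.6 CPM against 27.6, 22.7, 28.1, 31.7 and 29.9 CPM in controls, and the log2 fold change was 0.051 (interval -0.27 to 0.37). In the Flcn/Tfeb cross controls held 18.7, 22.2 and 35.9 CPM and DKO libraries 25.4, 15.5, 24.7 and 17.3 CPM, a log2 fold change of -0.33 (interval -0.96 to 0.31). Without control Flcn/Tfeb replicate 3, the highest control, it was 0.036. The Flcn/Tfe3 effect less the Flcn/Tfeb effect was 0.73 (SE 0.27, unadjusted p 0.011, adjusted p 0.31 from edgeR) and fell to 0.37 without that library. The Flcn/Tfe3 effect less the Flcn effect was 0.36 (SE 0.19, adjusted p 0.66 from edgeR), so the effects of the Flcn and Flcn/Tfe3 crosses were not shown to differ.

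Red blood cell markers are given beside the relatives because red blood cells carry MCT1 and basigin. In Flcn/Tfe3 DKO all 5 of these markers were below their controls, with log2 fold changes of -0.89 to -0.61 and an unadjusted p under 0.05 for each, as in 7.15% of all genes, and 0 of 5 were called. In Flcn KO and Flcn/Tfeb DKO all 5 were above their controls, with medians of 0.37 and 0.18 and 0 of 5 at an unadjusted p under 0.05. Without control Flcn/Tfeb replicate 3, 3 of 5 were above them in Flcn/Tfeb DKO. Their summed level ranged from 1395 to 6168 CPM in DKO libraries and from 2073 to 7568 CPM in controls of the Flcn/Tfe3 cross. It ranged from 3483 to 8698 CPM in controls and 3577 to 11999 CPM in knockouts of the Flcn cross, and from 3484 to 6027 CPM and 4033 to 7307 CPM in the Flcn/Tfeb cross. Their part in the levels of Slc16a1 and Bsg was not tested.

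**Figure D3:**
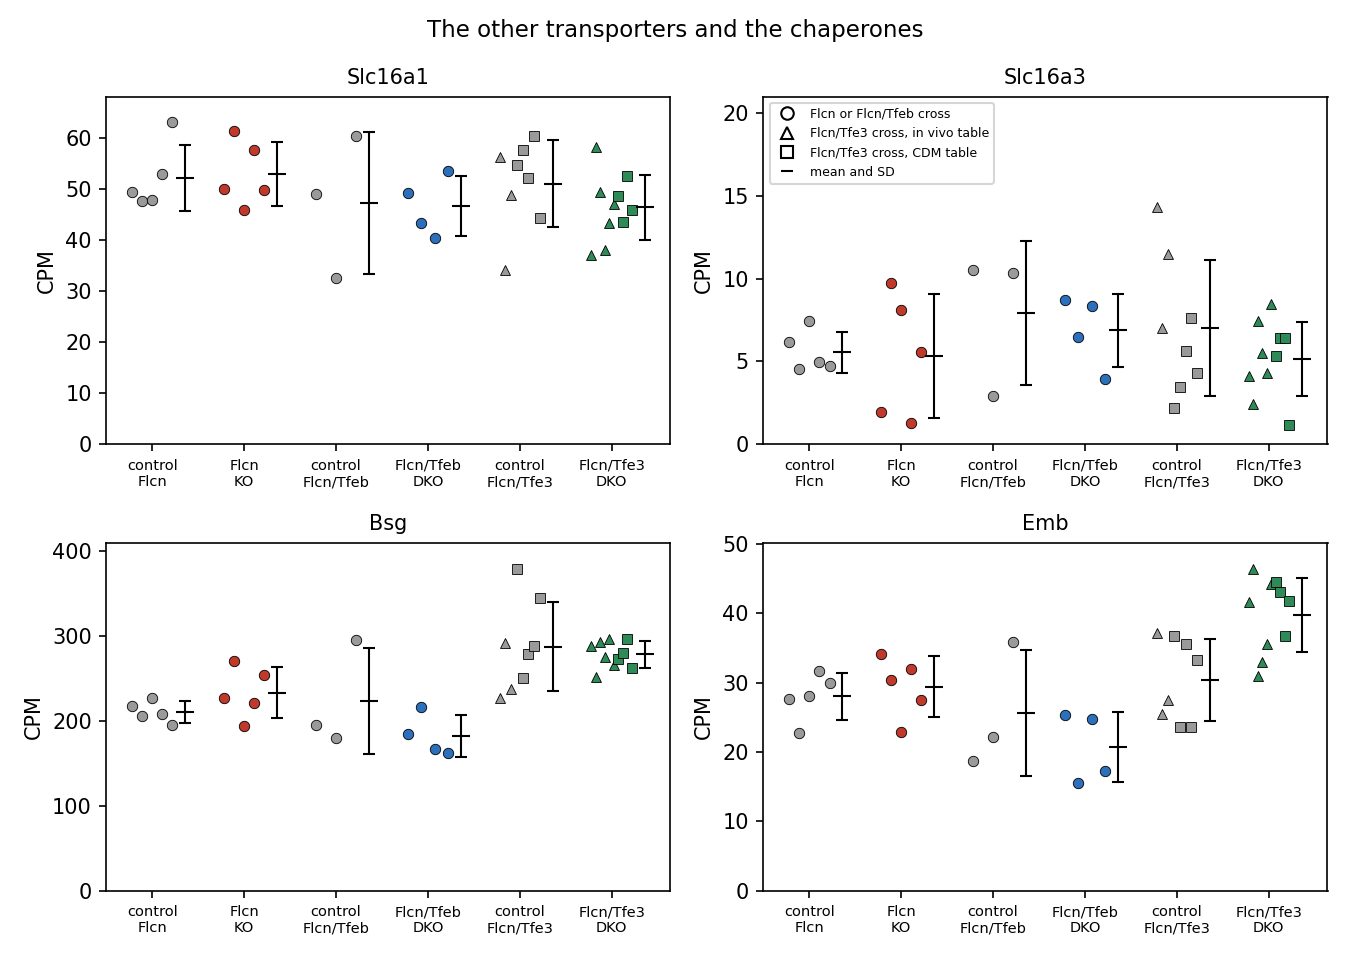
Levels of Slc16a1, Slc16a3, Bsg and Emb in each of 35 libraries (y axes, CPM, each from 0) by group, with means and SD as bars and marker shapes for the count tables. Knockout and control libraries of a cross overlap in every panel, and Emb is higher in most Flcn/Tfe3 DKO libraries (30.9 to 46.5 CPM) than in their controls (23.6 to 37.2 CPM).

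Other transporters of the family and of lactate were, like nearly all genes (0.520%, 0% and 0.385% called in the 3 crosses), not called. Of the 11 other SLC16 genes, 8 were tested in the Flcn cross and 9 in each of the others, and 0 were called in any of the 6 comparisons. Slc16a8 and Slc16a14, with at most 2 counts in a library, were not tested. At an unadjusted p under 0.05 stood 0, 1 and 0 of them in Flcn KO, Flcn/Tfeb DKO and Flcn/Tfe3 DKO, against 9.07%, 5.07% and 7.15% of all genes. In Flcn KO the log2 fold changes of the family ran from -0.39 for Slc16a6 to 0.20 for Slc16a10, an aromatic amino acid transporter, with a median of -0.083 against -0.0074 over all genes. Slc16a10 was at 0.080 without controls 4 and 5. In Flcn/Tfeb DKO they ran from -0.59 for Slc16a4 (unadjusted p 0.044, adjusted p 0.80 from edgeR) to 0.13 for Slc16a11, with a median of -0.082, and without control Flcn/Tfeb replicate 3 these values were -0.65, 0.52 and -0.0039. In Flcn/Tfe3 DKO they ran from -0.34 for Slc16a4 to 0.20 for Slc16a5, with a median of -0.16 against 0.0090 over all genes. The sodium-coupled lactate transporters of the proximal tubule, Slc5a8 and Slc5a12, and Nptn, the basigin relative neuroplastin, were not called in any comparison.

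Enzymes that make or use lactate and pyruvate were near the background of all genes. Of 18 genes (lactate dehydrogenases, pyruvate carriers, pyruvate dehydrogenase and its kinases and phosphatases, Pkm and Pcx), 17, 17 and 18 were tested and 0 were called in each cross. At an unadjusted p under 0.05 were 1, 0 and 2 of them, against 9.07%, 5.07% and 7.15% of all genes. Medians were 0.073 in Flcn KO, -0.13 in Flcn/Tfeb DKO and 0.078 in Flcn/Tfe3 DKO. In Flcn KO the extremes were Mpc1, a subunit of the mitochondrial pyruvate carrier (0.45, SE 0.22), and Pdp2, a pyruvate dehydrogenase phosphatase (-0.30, SE 0.15). Without controls 4 and 5 these were at 0.13 and -0.22, and the list ran from -0.45 for Pcx to 0.41 for Ldhb. In Flcn/Tfeb DKO they were Mpc2, the other subunit of that carrier (0.26, SE 0.22), and Pkm, pyruvate kinase (-0.52, SE 0.28). Both rest on control Flcn/Tfeb replicate 3, without which Mpc2 was at 0.031, Pkm at 0.025 and the median at -0.012. The list then ran from -0.48 for Mpc1 to 0.62 for Ldhd. In Flcn/Tfe3 DKO the extremes were Pkm at 0.34 (SE 0.15, adjusted p 0.64 from edgeR) and Mpc2 at -0.25 (SE 0.20). Of the carbonic anhydrases Car2 and Car4, 0 of 2 were called in any comparison.

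Among 6 genes of ketone body metabolism 1, Oxct1, was called higher in Flcn/Tfe3 DKO, against 0.385% of all genes called. Oxct1 encodes the mitochondrial transferase that lets cells burn ketone bodies. Its level ranged from 238 to 541 CPM in controls (median 311) and from 389 to 674 CPM in DKO libraries (median 522), with overlap. Means were 345 ± 101 CPM (SD, n = 8) and 520.2 ± 86.0 CPM (SD, n = 10), a log2 fold change of 0.51 (SE 0.10, adjusted p 0.013 from edgeR). With the replicate number as a block, where only replicates 1 to 3, 7 and 8 inform the effect, it was 0.49 and not called (adjusted p 1.0 from edgeR). It was 0.62 in the CDM table (adjusted p 0.015) and 0.36 in the in vivo table, where it was not called (adjusted p 0.75 from edgeR). In the CDM table the share of reads on no gene also differed between DKO and most control libraries, and its part in the Oxct1 value was not tested. Without Flcn/Tfe3 DKO replicate 7 the adjusted p of Oxct1 from edgeR was 0.0507, and it was under 0.05 in 17 of the 18 fits that left out 1 library.

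In Flcn KO Oxct1 had 427 ± 54.7 CPM (SD, n = 5) in controls and 563 ± 67.4 CPM (SD, n = 5) in knockouts, a log2 fold change of 0.40 (SE 0.13, adjusted p 0.27 from edgeR). In Flcn/Tfeb DKO it was -0.30 (SE 0.19), and -0.13 without control Flcn/Tfeb replicate 3. The Flcn/Tfe3 effect less the Flcn/Tfeb effect was 0.80 (SE 0.19, unadjusted p 0.00024, adjusted p 0.26 from edgeR) and 0.63 without that library (adjusted p 0.98 from edgeR), so a difference between these effects was not called. Others of the list were not called. At an unadjusted p under 0.05 stood 3, 0 and 1 of the 6 in Flcn KO, Flcn/Tfeb DKO and Flcn/Tfe3 DKO. Of all genes 9.07%, 5.07% and 7.15% did. In Flcn KO 4 of the 6 were above 0 and 2 below. The list ran in Flcn/Tfeb DKO from -0.50 for Bdh1 to 0.25 for Bdh2, both hydroxybutyrate dehydrogenases. Without control Flcn/Tfeb replicate 3 they were at -0.044 and 0.26. Bdh2 was the lowest in Flcn/Tfe3 DKO (-0.24). Medians were 0.19, -0.10 and -0.056 in the 3 crosses, from 6 genes each. The first was -0.013 without controls 4 and 5, and the second 0.085 without control Flcn/Tfeb replicate 3.

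**Figure D4:**
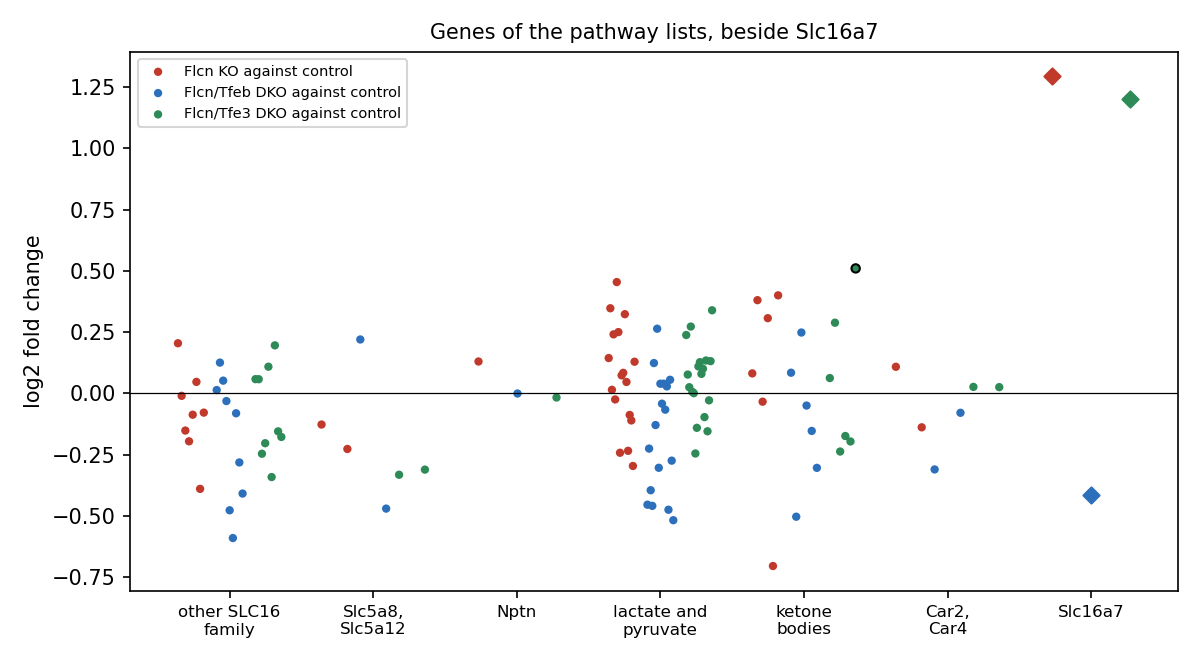
Log2 fold change against own controls (y axis) of each tested gene of the pathway lists (x axis) in the 3 crosses, one point per gene, with a black outline where the gene was called, and Slc16a7 as diamonds for comparison. Oxct1 in Flcn/Tfe3 DKO (0.51) is the outlined point, and no listed gene reaches the Slc16a7 value of 1.20 in that cross. The Slc16a7 value of 1.30 in Flcn KO was among those that chose the gene.

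Genes with the pattern of Slc16a7 over the 35 libraries were sought among 13727 others, by the Pearson correlation of log2 CPM less the mean of the own controls. The 5 most alike were Sostdc1, a secreted antagonist of bone morphogenetic proteins (r = 0.915), Umod (0.903), Ptger3, a prostaglandin E2 receptor (0.898), Car12, a membrane carbonic anhydrase (0.895), and Blnk, an adaptor of B cell receptor signalling (0.874). The median of all genes was -0.012, and 95% lay below 0.41. These correlations describe 35 points that fall into groups by genotype and share libraries, and the choice of Slc16a7 is part of them. Sostdc1 had 356 ± 28.5 CPM (SD, n = 5) in controls and 593 ± 20.7 CPM (SD, n = 5) in Flcn KO, and 354 ± 39.7 CPM (SD, n = 3) and 276 ± 12.7 CPM (SD, n = 4) in the Flcn/Tfeb cross. In the Flcn/Tfe3 cross it had 354 ± 70.7 CPM (SD, n = 8) in controls and 533 ± 106 CPM (SD, n = 10) in DKO libraries.

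All 5 genes, which were picked by this pattern, were higher on average in Flcn KO and Flcn/Tfe3 DKO, and lower in Flcn/Tfeb DKO, than in their own controls. For Umod the direction in Flcn/Tfeb DKO was not steady. It lay -0.14 ± 0.16 (SD, n = 4) from its controls in log2 CPM, and its log2 fold change was 0.17 without control Flcn/Tfeb replicate 3. Car12 lay 0.62 ± 0.14 (SD, n = 5), -0.17 ± 0.13 (SD, n = 4) and 0.72 ± 0.14 (SD, n = 10) from its controls in log2 CPM, in Flcn KO, Flcn/Tfeb DKO and Flcn/Tfe3 DKO. Ptger3, at 5.12 to 17.4 CPM in the group means, lay 1.06 ± 0.23 (SD, n = 5), -0.43 ± 0.56 (SD, n = 4) and 1.03 ± 0.33 (SD, n = 10) from them. Among the relatives Emb ranked 107 (r = 0.62) and Bsg 1152 (0.34), whereas Slc16a1 (-0.071) and Slc16a3 (-0.31) did not follow Slc16a7.

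**Figure D5:**
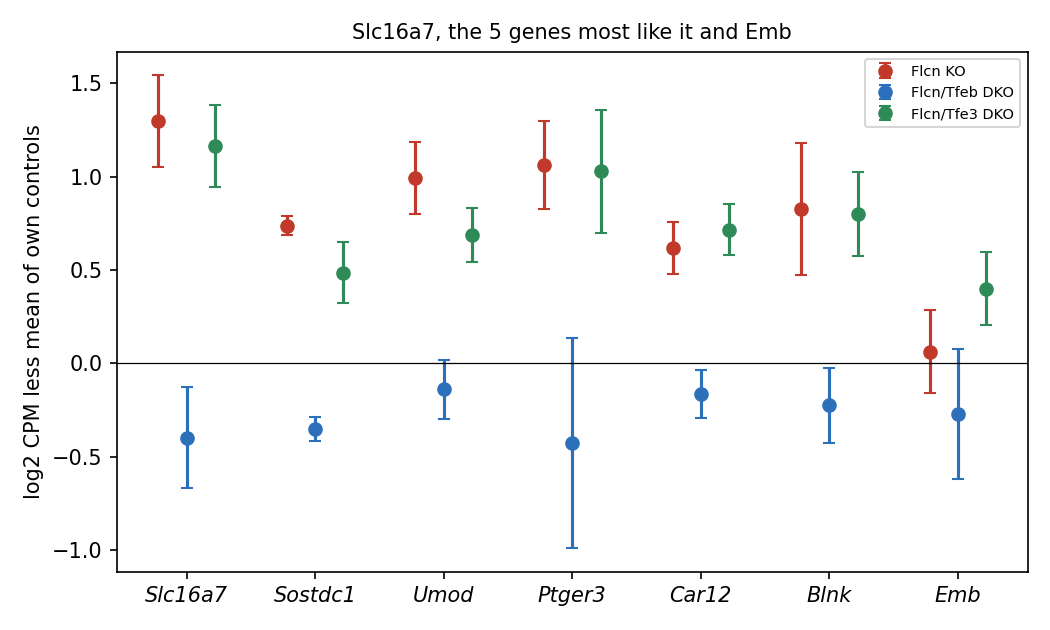
Mean and SD of log2 CPM less the mean of the own controls (y axis) for Slc16a7, the 5 genes most alike by correlation, and Emb (x axis), in Flcn KO (n = 5), Flcn/Tfeb DKO (n = 4) and Flcn/Tfe3 DKO (n = 10). Flcn/Tfeb DKO is lowest for Slc16a7 and for each of the 5 genes, and Emb is near 0 in Flcn KO and at 0.40 in Flcn/Tfe3 DKO.

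With each group's own mean taken away, so that only the spread between libraries of 1 group was left, other genes came first. They were Homer1 (r = 0.74), Spindoc (0.68), Grb14 (0.67), Otud5 (0.65) and Atp6v0a1 (0.60), and 95% of genes lay below 0.34. Emb ranked 147 by this measure (r = 0.46), above Slc16a1 (0.13), Bsg (0.053) and Slc16a3 (-0.098). The mean level of Homer1 was between 12.1 and 16.1 CPM in the 6 groups, and it was not higher in Flcn/Tfe3 DKO (12.1 ± 1.33, SD, n = 10) than in controls (14.3 ± 4.27, SD, n = 8).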

How the data were processed

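Members and gene lists were chosen with earlier results of these data known. Per the labels and the study's methods, whole-kidney RNA was sequenced in 35 libraries, and the authors removed adapters with bbduk (bbmap suite 37.31), used STAR to align to mm10, and obtained the count of each gene from HTSeq-count 0.9.1. The submitters' processing notes name Trim Galore in place of bbduk. The deposited values are raw counts per gene, with no normalization. Of 31053 genes, 99.6% are in GENCODE M21, from which positions were taken. The annotation release of the authors is not given in the sources used here. Reads on no gene (7.92% to 19.9%), on more than 1 place (33.7% to 49.4%) or on more than 1 gene (0.317% to 0.500%), tallied for 26 libraries, were left out, and a 3′ tag on more than 1 place is lost. No annotated gene overlapping a member lies within its last 2 kb.

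Counts were fitted in edgeR 4.0.16 (R 4.3.3) by the quasi-likelihood F test after scaling with TMM and a filter of low genes (filterByExpr, by group), one baseline per cross and table, and differences between crosses as differences of effects. CPM have a prior count of 2 on the log2 scale. The scripts were tested on simulated data first. Alternatives were DESeq2 1.42.0, RLE factors, library totals, no filter, a filter at a mean of 10 counts, the replicate number as a block, all libraries in 1 fit, each table alone and each library left out in turn. They were also run for Oxct1, and the list genes also fitted without the controls that stood apart, both chosen after seeing the data. The genes named are the 5 members, the genes of the pathway lists (transporters, lactate and pyruvate, ketone bodies, carbonic anhydrases) called in any of the 6 fits, the highest and lowest gene of each such list with 5 or more tested genes in each cross, the 5 genes most like Slc16a7 by each of 2 measures, and Flcn, Tfeb, Tfe3 and Cdh16. One gene that this rule names is not reported here. Markers and other genes were named after their values were seen. Cdh16, the source of the Cre promoter, had group means of 211 to 311 CPM.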

Additional observations from a re-analysis of the deposited data

Results flagged for a closer look

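Slc16a7 stood on different sides of the control mean in crosses that share the loss of Flcn. All 5 Flcn KO libraries lay above the mean of their controls and all 4 Flcn/Tfeb DKO libraries below theirs, although the latter groups overlapped (log2 fold change -0.42, SE 0.23), with a difference of -1.72 (SE 0.25) in log2 between the effects. All 10 Flcn/Tfe3 DKO libraries lay above their controls, which gave 1.60 (SE 0.23) for the Flcn/Tfe3 effect less the Flcn/Tfeb effect. These differences were not tested, because the gene was chosen by such values.

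Slc16a3 was at 1.17 CPM in Flcn/Tfe3 DKO replicate 10, from 4 reads, while the other 3 DKO libraries of the CDM table held 5.35 to 6.43 CPM. In all 10 DKO libraries of the cross it was the lowest, next to 2.42 CPM, with the highest at 8.44 CPM. Of 30 sets of 4 to 6 libraries, by member, group and table, 1 held a library this far from the rest, and chance flags about 1 in 20. Sets of 3 libraries were not examined.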

How the results depend on the processing

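No relative of Slc16a7 was called by any of the 153 alternative fits of the 6 comparisons. Slc16a7 kept its direction in each comparison with controls, and 151 of its 153 alternative values stayed within the spread between replicates or on the same side of the threshold. The exceptions were the replicate block in the Flcn/Tfe3 comparison, with a log2 fold change of 1.12 (adjusted p 0.10 from edgeR, 0 genes called), and library totals for the Flcn/Tfe3 effect less the Flcn/Tfeb effect, at 1.84. Oxct1 stayed called in 24 of 27 alternatives in Flcn/Tfe3 DKO and was lost under the block (0.49, adjusted p 1.0 from edgeR), in the in vivo table alone and without Flcn/Tfe3 DKO replicate 7. Over the alternatives of the Flcn/Tfe3 comparison the value of Slc16a7 was 1.12 to 1.28 and the adjusted p 8.0e-20 to 0.10. Library totals moved the median of all genes from 0.0028 to 0.23 in the difference between the Flcn/Tfe3 and Flcn/Tfeb effects and from -0.017 to -0.14 in the Flcn/Tfeb comparison, and turned the small Slc16a7 difference between the Flcn/Tfe3 and Flcn effects from -0.095 to 0.057. Replicate numbers did not pair the samples (correlation of the deviations -0.32 to 0.31). Libraries whose number occurs in only 1 group of a cross and table do not inform the effect under the block, so that fit rests on fewer libraries.

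Numbers of genes called varied with the choice. In Flcn KO they were 62 by edgeR, 113 by DESeq2, 95 with no filter and 37 to 58 with 1 library left out. In Flcn/Tfe3 DKO they were 48, 96 by DESeq2, 0 under the block, 8 in the in vivo table, 569 in the CDM table and 30 to 53 with 1 library left out. For Flcn/Tfeb DKO they were 0, 3 with all 35 libraries in 1 fit and 1 without control Flcn/Tfeb replicate 1. Between the Flcn/Tfeb and Flcn effects they were 2, 8 by DESeq2, 5 with all libraries in 1 fit, and 0 under the block or without Flcn/Tfeb DKO replicate 4. Between the Flcn/Tfe3 and Flcn effects they were 0, 1 by DESeq2 and 459 with the CDM table alone. Between the Flcn/Tfe3 and Flcn/Tfeb effects they were 3, 13 by DESeq2, 0 under the block or with the in vivo table alone, 1 with the CDM table alone and 82 without control Flcn/Tfeb replicate 2. The cause was not tested. Depth limits Slc16a3 most, and the Flcn/Tfeb cross, with 3 controls, gave the widest intervals for Slc16a1, Slc16a3, Bsg and Emb.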
